A study of Mus musculus with 12 samples.

Results

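The enzymes that build purine and pyrimidine nucleotides from small precursors were followed in mouse Ba/F3 cells carrying the R98S mutation of the ribosomal protein RPL10 and in WT controls. The 10 genes were chosen by name, as members of both pathways: 7 of the purine branch (Ppat, Gart, Pfas, Paics, Adsl, Atic and Impdh2) and 3 of the pyrimidine branch (Cad, Umps and Ctps). They are 10 of the 41255 genes in the mRNA table, and all 10 were also listed among the 10080 genes with ribosome footprints. Ba/F3 is a mouse lymphoid line that depends on interleukin-3. The 6 lines compared were single-cell-derived clones transduced with a retrovirus carrying human RPL10 cDNA, either R98S (clones 11, 13 and 35) or WT (clones 28, 29 and 36). In both genotypes the endogenous mouse Rpl10 was knocked down with an shRNA, so the WT clones carry the vector and the knockdown too. Each clone gave 1 library of ribosome-protected mRNA fragments (RPF) and 1 library of total mRNA, after 5 min in 100 µg/ml cycloheximide, which holds ribosomes on the mRNA. With 1 library per clone and assay, the spread within a genotype is the spread between clones (n = 3 in each genotype).

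The purine ring is assembled step by step on phosphoribosyl pyrophosphate. Ppat makes the committed first step, Gart, Pfas, Paics, Adsl and Atic complete the ring to give IMP, and Impdh2 turns IMP towards GMP. The pyrimidine ring is made before it is joined to the sugar: Cad carries out the opening reactions on 1 polypeptide, Umps makes UMP, and Ctps converts UTP to CTP. Glycine and one-carbon units, which come largely from serine, supply atoms of the purine ring. Proliferating lymphoid cells draw on both pathways for RNA and DNA, and several of the genes are known targets of the transcription factor Myc, which binds the E-box CACGTG.

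Because these genes are often described together as Myc targets, the E-box was looked up in RefSeq promoter windows of GRCm38.p6, which run from 250 bases before to 50 bases after each start site. A window was found for 9 of the 10 genes, and none for Pfas. The 6 letters CACGTG, which read the same on both strands, were present in 3 of these 9 genes (33.3%). They were present in 8.09% of the 27025 genes with a window and in 11.8% of the 8366 of these that were also tested for mRNA. Counted by window, the share was 7.15% of all 32851. Sites outside the windows were not looked up, so a gene without the motif here may hold it elsewhere. The 3 sites are shown with 12 bases on either side, 5′ to 3′ along the gene, with the motif in capitals.
Paics, chr5:76951087-76951116, plus strand: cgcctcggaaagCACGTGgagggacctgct
Atic, chr1:71557137-71557166, plus strand: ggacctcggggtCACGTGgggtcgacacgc
Impdh2, chr9:108560314-108560343, plus strand: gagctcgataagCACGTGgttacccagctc

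The motif began 203 bases before the RefSeq start site of Paics, 7 bases before that of Atic and 110 bases before that of Impdh2. In GENCODE M21 (GRCm38) the Paics site lay in a non-coding part of an exon of Ppat, which is read in the opposite direction, and the other 2 sites touched non-coding exon sequence of their own genes. A match of letters is not evidence of binding, and no binding was measured in these cells.

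No difference between R98S and WT cells was detected for any of the 10 enzymes in mRNA, in footprints or in translation efficiency (TE, the ratio of footprints to mRNA in a clone). At an adjusted p under 0.1 in limma, 0 of 10 were called in mRNA, where 6.94% of 11344 genes were called (3.03% higher in R98S and 3.91% lower), 0 of 10 in RPF, where 7.76% of 9580 were called (3.13% higher and 4.62% lower), and 0 of 10 in TE, where 0.0221% of 9043 were called. No enzyme had an unadjusted p under 0.05 in any of the 3 measures, and edgeR and DESeq2 on whole reads called 0 of the 10 in each. For the set, the median log2 fold change of R98S against WT was 0.13 in mRNA (8 of 10 above 0), 0.05 in RPF (6 of 10) and -0.10 in TE (3 of 10). Over all genes tested the medians were 0.013, 0.014 and -0.001, with 51.4%, 51.2% and 49.8% above 0. The median absolute change was 0.13, 0.12 and 0.14 on the log2 scale, against 0.26, 0.28 and 0.21 over all genes tested. The 95% intervals of the single genes, which are not adjusted for the number of genes, ran from 0.703-fold to 1.84-fold in mRNA, from 0.651-fold to 1.75-fold in RPF and from 0.544-fold to 1.49-fold in TE. These bounds are the extremes over the 10 genes, and single genes had narrower intervals, such as 0.862-fold to 1.41-fold for Umps mRNA.

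At least 304 reads stood behind every value of the 10 genes in every library. In total the mRNA libraries held 20576796 to 23136595 reads, except that of WT clone 28 with 6617457, and the footprinting libraries held 3477723 to 10883086. Values are normalized counts, that is reads divided by the library's size factor. Of the 7 markers chosen for Ba/F3 cells, 5 were expressed, among them the interleukin-3 receptor chains Il3ra and Csf2rb, while the pre-B cell receptor genes Vpreb1 and Igll1 were at or near 0. The summed mRNA of the list ran from 99928 to 121493 normalized counts in R98S clones and from 47241 to 92960 in WT clones, a sum made up mostly of Csf2rb and Csf2rb2. Of these receptor chains Csf2rb2 rose in R98S mRNA and Csf2rb did not pass (0.95 and 0.93 on the log2 scale, adjusted p = 0.0424 and 0.121 in limma). In RPF both rose, Csf2rb2 by 1.08 and Csf2rb by 1.02 (adjusted p = 0.00886 and 0.0392). Cd79b was at 1.00 in mRNA (adjusted p = 0.112) and Il3ra at -0.22 (adjusted p = 0.691), and neither passed in RPF. The leukocyte antigen Ptprc was at -0.80 in mRNA (adjusted p = 0.175) and fell in RPF, at -1.19 (adjusted p = 0.0157). Summed markers of T cells (4 genes, up to 18.8 normalized counts in a clone) and of stromal cells (4 genes, 4.30 to 12.7 in R98S and 0 to 0.825 in WT) were near 0 throughout, with Pdgfrb at 0 in every library. The part of the marker differences in the enzymes' values was not tested.

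**Figure D1:**
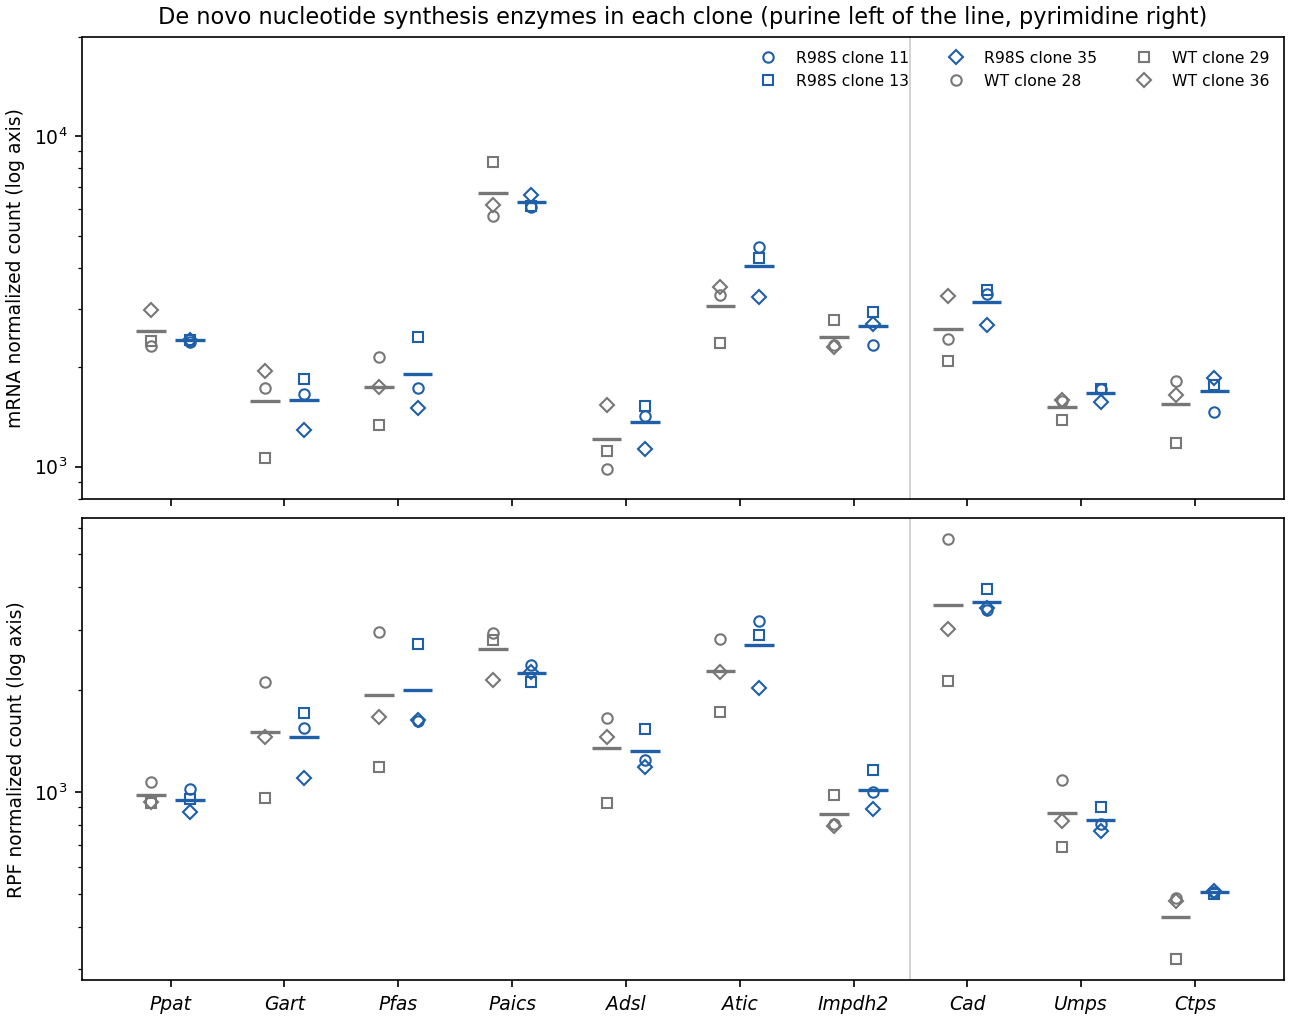
Normalized counts of mRNA (upper panel) and RPF (lower panel) on log axes for the 10 enzymes, with 1 symbol per clone, WT in grey, R98S in blue and a bar at the mean of 3 clones. The genotypes overlap for every enzyme except Ctps in RPF, where the R98S clones sit between 502 and 510.5 and the highest WT clone is at 486.

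Ppat (chr5:76913249-76951578, minus strand), the amidotransferase that commits precursors to purines, had 2386, 2424 and 2419 normalized counts of mRNA in R98S clones 11, 13 and 35 and 2309, 2405 and 2988 in WT clones 28, 29 and 36. The R98S clones lay closer together than the WT clones and inside their range, and the log2 fold change was -0.08 ± 0.16 (SE; adjusted p = 0.846). In footprints the R98S clones held 1022, 955 and 869.9 normalized counts and the WT clones 1069.9, 928 and 934, a log2 difference of -0.04 ± 0.17 (adjusted p = 0.913). Gart (chr16:91621186-91646952, minus strand), which catalyses 3 steps of the ring, varied far more between clones: its mRNA stood at 1656, 1839 and 1290.4 in R98S and at 1724, 1063 and 1941 in WT. WT clone 29 was the lowest of the 6 and WT clone 36 the highest, so both extremes were WT. Gart footprints were 1540.1, 1709 and 1097 in R98S and 2106, 962 and 1448 in WT, with a log2 fold change of -0.01 ± 0.28 (adjusted p = 0.99).

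Pfas (chr11:68985697-69008460, minus strand), the formylglycinamidine ribotide synthase, gave 1729, 2468 and 1504 mRNA counts in the R98S clones and 2146, 1339 and 1741 in the WT clones. R98S clone 13 was highest, and the log2 fold change of 0.12 ± 0.24 (adjusted p = 0.846) became -0.08 without that clone. The median of the 932 chromosome 11 genes was also 0.27 above the 6-clone mean in R98S clone 13 on the log2 scale, and with chromosome medians removed the Pfas change was 0.02. In RPF, Pfas ranged from 1186 in WT clone 29 to 2950.0 in WT clone 28, wider than the R98S range of 1620.4 to 2734.

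Paics (chr5:76951307-76967509, plus strand) joins carboxylase and synthetase activities in 1 protein. Its mRNA was 6104, 6161 and 6637 in R98S and 5717, 8347 and 6191 in WT, with WT clone 29 far above the other 5. Footprints of Paics were 2357, 2110.4 and 2259 in R98S and 2941, 2807 and 2135 in WT. That was the lowest RPF difference of the 10, -0.22 ± 0.18 on the log2 scale (95% interval -0.62 to 0.18, adjusted p = 0.541), and the genotypes overlapped. Ppat and Paics are divergent neighbours whose annotated 5′ ends share 272 bases on chromosome 5, and whether strand was used in counting is not given in the sources used here, so reads in that stretch cannot be assigned with certainty. Impdh2 likewise shares 48 exon bases with Ndufaf3 on the opposite strand, while the antisense genes that overlap exons of Gart and Umps had at most 2.69 and 0.860 normalized counts. The ratio of Paics to Ppat mRNA was 2.61 ± 0.112 in R98S and 2.67 ± 0.720 in WT (mean ± SD, n = 3, two-sided exact permutation p = 1). Among WT clones it was 2.48 in clone 28, 3.47 in clone 29 and 2.07 in clone 36, so this pair was not held at a fixed ratio across clones. For footprints the ratio was 2.37 ± 0.202 in R98S and 2.69 ± 0.374 in WT (exact permutation p = 0.3, n = 3, where 0.1 is the smallest p possible).

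Adsl (chr15:80948490-80970946, plus strand), adenylosuccinate lyase, acts both in the ring and in the step to AMP. Its mRNA stood at 1422, 1529 and 1129.6 in R98S clones and 983, 1112 and 1536 in WT clones, and its footprints at 1238, 1532 and 1184 and 1652, 929 and 1453. The WT clones were spread more widely than the R98S clones in both, and the genotype means of RPF were nearly equal, with a log2 difference of 0.00 ± 0.23. The ratio of RPF to mRNA was 0.870, 1.00 and 1.05 in R98S and 1.68, 0.835 and 0.946 in WT, on a relative scale since the 2 tables were normalized separately. WT clone 28 was far above the other 5 clones, and the TE change of -0.18 ± 0.27 (adjusted p = 0.855) became 0.13 without it.

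Atic (chr1:71557150-71579631, plus strand), which closes the purine ring, showed the largest mRNA difference of the set. Its mRNA was 4606, 4289.8 and 3267 in R98S clones 11, 13 and 35 and 3300.3, 2373 and 3493 in WT clones 28, 29 and 36. R98S clones 11 and 13 were above all WT clones, R98S clone 35 was not, and the log2 fold change of 0.41 ± 0.21 (95% interval -0.05 to 0.88) did not pass (unadjusted p = 0.0764 and adjusted p = 0.341 in limma). Over the alternatives run, the adjusted p of Atic mRNA ran from 0.109 to 0.702. The median of the 596 genes of chromosome 1 was 0.20, 0.20 and -0.08 from the 6-clone mean in R98S clones 11, 13 and 35. Atic itself was at 0.41, 0.30 and -0.09 there. In WT clones 28, 29 and 36 the chromosome median was -0.18, -0.08 and -0.04, and Atic was at -0.08, -0.55 and 0.01. The WT clones thus differed in order between the gene and its chromosome, and a link between them was not tested. Without WT clone 29 the Atic mRNA change was 0.24. With the chromosome medians removed, the Atic mRNA change was 0.21 (adjusted p = 0.61). The same step made the mRNA changes of Ppat, Pfas, Paics, Atic and Ctps smaller in size. It made those of Gart (0.11), Adsl (0.22), Impdh2 (0.13), Cad (0.33) and Umps (0.20) larger. The median mRNA change of the 10 enzymes was 0.12 with this step and 0.13 without it. Atic footprints were 3181, 2905 and 2025 in R98S and 2819, 1718 and 2253 in WT, in the same order of clones within each genotype except that WT clones 28 and 36 changed places, with a log2 fold change of 0.26 ± 0.23 (adjusted p = 0.575).

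Impdh2 (chr9:108560286-108565584, plus strand), the IMP dehydrogenase that limits guanine nucleotide supply, had 2332, 2939 and 2695 mRNA counts in R98S and 2339, 2778 and 2299 in WT. Its footprints were 997, 1160.0 and 890.0 in R98S and 803, 981 and 792 in WT. WT clone 29, low for most of the set, was the highest WT clone for Impdh2 in both. The RPF log2 fold change was 0.24 ± 0.18 (adjusted p = 0.491), with 1 WT clone inside the R98S range.

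In the pyrimidine branch, Cad (chr5:31054780-31078479, plus strand) had 3318, 3426 and 2687 mRNA counts in R98S clones and 2438, 2089 and 3285 in WT clones. In footprints the R98S clones lay close together at 3424, 3968 and 3481, while the WT clones spread from one end to the other at 5541, 2118 and 3014. WT clone 28 was above and the other WT clones were below every R98S clone. The ratio of RPF to mRNA for Cad was 1.03, 1.16 and 1.30 in R98S and 2.27, 1.01 and 0.917 in WT, the widest WT spread of the set. Accordingly the interval of the Cad TE change was wide, -0.88 to 0.58 around -0.15 on the log2 scale (adjusted p = 0.907), and the change was 0.26 without WT clone 28 and -0.39 without WT clone 36.

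Umps (chr16:33954782-33967038, minus strand), the UMP synthase, varied little in mRNA, at 1712, 1721 and 1572 in R98S and 1579, 1382 and 1585 in WT. Its footprints were 807, 904 and 769 in R98S and 1087, 688 and 819.6 in WT, where clone 28 was highest and clone 29 lowest of all 6. The TE change of Umps was -0.18 ± 0.19 (adjusted p = 0.782), the largest in size of the 10. Ctps (chr4:120539868-120570276, minus strand), the CTP synthase, gave 1465, 1771 and 1853 mRNA counts in R98S and 1815, 1175 and 1642 in WT. Its footprints were 507, 502 and 510.5 in R98S and 486, 322 and 477 in WT, so that every R98S clone was above every WT clone. Such separation was found for 1 of the 10 enzymes in RPF and for 0 of 10 in mRNA and in TE, against 25.3%, 23.5% and 14.8% of all genes tested. The RPF log2 fold change of Ctps was 0.27 ± 0.20 (95% interval -0.18 to 0.71, adjusted p = 0.493; exact permutation p = 0.1, the smallest possible for 3 against 3), and most of it came with WT clone 29, without which it was 0.07. The median of the chromosome 4 genes was itself 0.18 higher in R98S mRNA and 0.19 higher in R98S RPF on the log2 scale. With chromosome medians removed, the Ctps change was 0.08 in RPF and -0.02 in mRNA.

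**Figure D2:**
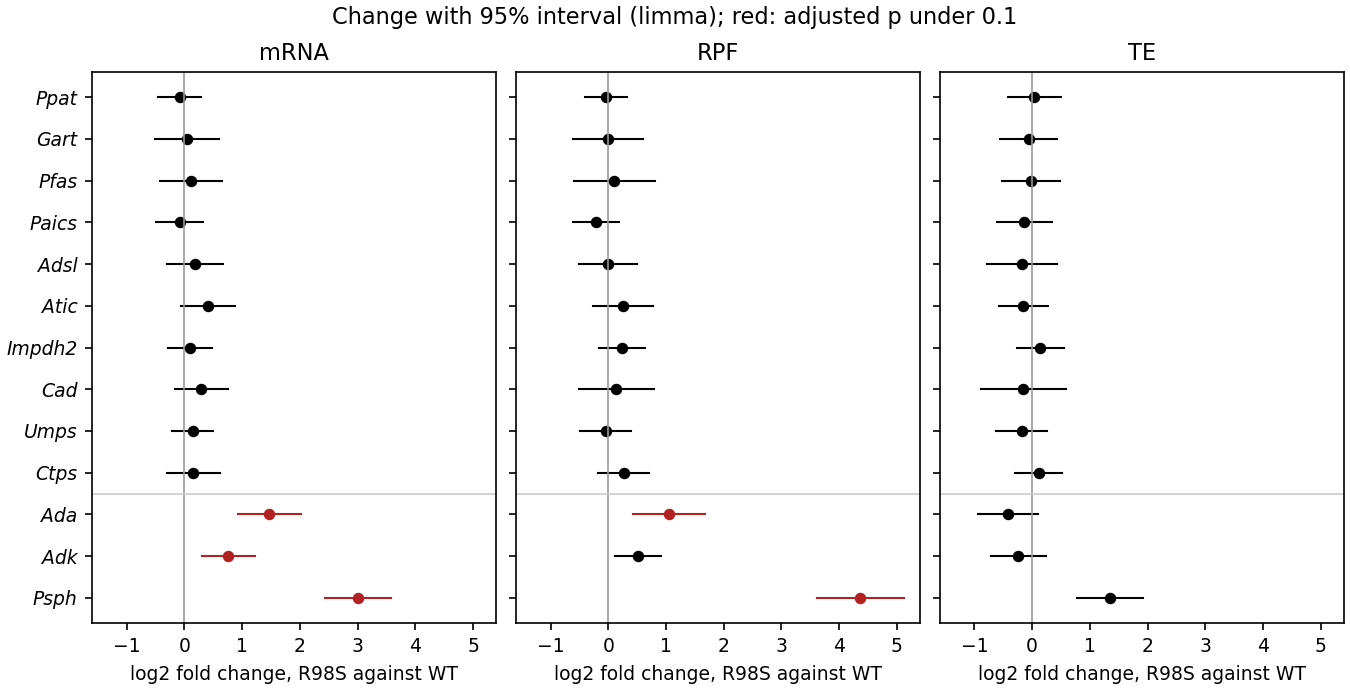
Log2 fold change of R98S against WT with its 95% interval from limma, for mRNA, RPF and TE, with the 10 enzymes above the line and 3 genes of neighbouring pathways below it; red points have an adjusted p under 0.1. The enzymes' points lie between -0.22 and 0.41 and every interval holds 0, while Psph is at 3.01 in mRNA and 4.36 in RPF.

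Clones of the WT genotype lay farther apart than the genotype means did. The range of the 3 WT clones exceeded the size of the log2 fold change for 10 of 10 enzymes in mRNA and in RPF and for 9 of 10 in TE, the exception being Impdh2. The share over all genes was not computed, so these counts do not set the enzymes apart from other genes. WT clone 29 was the lowest of the 6 clones for 6 of the 10 enzymes in mRNA and for 7 of 10 in RPF, against 16.9% and 20.6% of all genes tested. The set's median in this clone was -0.31 from the 6-clone mean in mRNA and -0.50 in RPF on the log2 scale. WT clone 28 was the highest for 7 of the 10 in RPF and for 8 of 10 in TE, against 20.2% and 34.2% of all genes, and the median of the set was 0.31 above the mean in RPF and 0.39 above in TE. This clone has the shallowest mRNA library. The pattern was not particular to the enzymes, as genes of serine, glycine and one-carbon metabolism showed. In RPF, WT clone 28 was also highest for Psat1, Shmt1, Shmt2, Mthfd1, Mthfd2 and Mthfd1l, but not for Phgdh or Psph. In TE it was highest for the same genes except Mthfd2. WT clone 29 was lowest in RPF for Shmt1, Shmt2, Mthfd1 and Mthfd2, but not for Phgdh, Psat1, Psph or Mthfd1l. The members do not count as independent replicates of a clone, since each value comes from the same library.

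Paics and Impdh2 stood apart from the rest in WT clone 29. Paics mRNA was 0.37 above the mean of the 6 clones and Impdh2 mRNA 0.12 above it, where the other 8 enzymes were between -0.55 and -0.04. R98S clone 13 stood in the other direction, with a median of 0.22 above the mean in mRNA and in RPF. The spread within a genotype was correspondingly larger among WT clones: the median SD over the set was 0.315 in WT and 0.185 in R98S for mRNA, 0.347 and 0.156 for RPF, and 0.311 and 0.128 for TE, all in log2 units. Over all genes tested the medians were 0.293 and 0.225, 0.271 and 0.246, and 0.292 and 0.200. In each measure the WT SD was the larger for 8 of the 10 enzymes, against 62.7%, 53.8% and 67.1% of all genes.

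**Figure D3:**
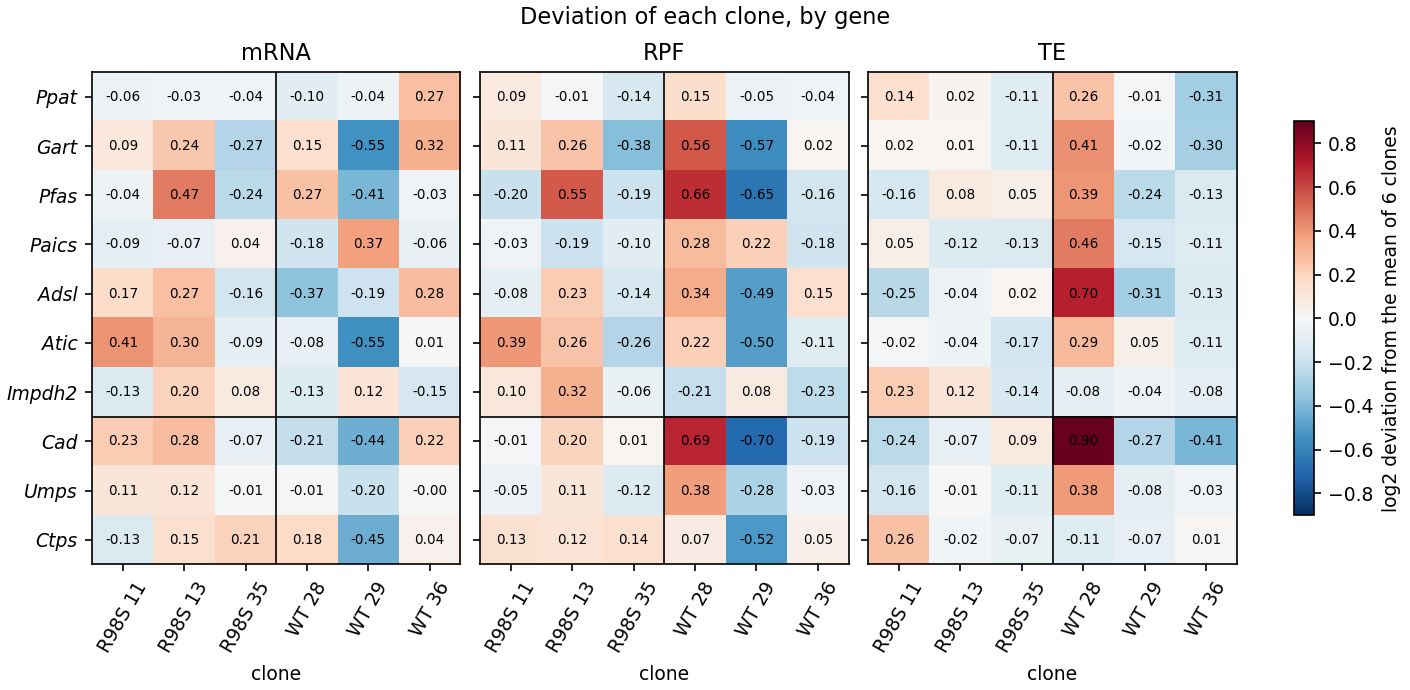
Log2 deviation of each clone from the mean of the 6 clones for every enzyme, in mRNA, RPF and TE; blue is below and red above the mean. WT clone 29 is blue for most enzymes in mRNA and RPF, with Paics (0.37 in mRNA) as the main exception, and WT clone 28 is red for most in RPF and TE, up to 0.90 for Cad TE.

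The median change of the set stayed above 0 in mRNA with any 1 clone left out, while in RPF and TE its direction depended on single clones. Without WT clone 29 the median log2 fold change of the 10 enzymes was 0.08 in mRNA, -0.17 in RPF and -0.15 in TE. Without WT clone 28 it was 0.15 in mRNA, 0.23 in RPF, with 9 of 10 above 0, and 0.13 in TE, with 8 of 10 above 0. In RPF the median was also below 0 without R98S clone 13, at -0.08 with 4 of 10 above 0. No enzyme passed the threshold with any of these clones left out.

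To compare levels between the enzymes, normalized counts were divided by length, with 1 transcript taken per gene. In WT cells Paics mRNA was the highest, at 2720.2 ± 565 normalized counts per kb of transcript (mean ± SD, n = 3), followed by Impdh2 at 1330.5 ± 143 and Atic at 1074 ± 211. These 3 and Ppat, at 645 ± 92.3, kept their order in all 3 WT clones without overlap of neighbours. Below them came Ctps at 571 ± 122, Gart at 448 ± 130.0, Umps at 435 ± 33.3, Cad at 365 ± 86.2, Adsl at 326 ± 78.0 and Pfas at 273 ± 63.3. Each of these 6 overlapped its neighbour above in the WT clones, so the order of most adjacent pairs is not resolved, although Ctps was above Gart in 3 of 3 WT clones. Among the 8626 genes ranked, Paics was at the 95.7 percentile of mRNA per kb and Pfas at the 47.8. The order depends on the transcript chosen: with the length of all annotated exons, Atic moved from rank 3 to rank 6 and Paics stayed at rank 1.

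Footprints per kb of coding sequence gave another order. Paics was again highest at 2163 ± 356, Atic came next at 1319 ± 321, and Adsl, at rank 9 in mRNA, was at 966 ± 268. Ctps was lowest at 250.0 ± 54.0, below Pfas (489 ± 231) without overlap. Paics and Atic did not overlap either, and kept their order in 3 of 3 WT clones. The other 7 pairs of neighbours overlapped, with Ppat at 655 ± 53.9, Umps at 625 ± 147, Impdh2 at 579 ± 71.4, Cad at 538 ± 268 and Gart at 507 ± 193. The footprint density, RPF per kb over mRNA per kb, was set relative to the median of the 8626 genes on the log2 scale. Adsl had a density of 2.12 ± 0.48 (the 97.8 percentile) and stood above Pfas at 1.33 ± 0.28 in every WT clone. Umps was at 1.07 ± 0.20, Cad at 1.04 ± 0.66, Atic at 0.86 ± 0.15, Gart at 0.72 ± 0.30, Ppat at 0.60 ± 0.23 and Paics at 0.24 ± 0.29. Ctps at -0.62 ± 0.11 and Impdh2 at -0.63 ± 0.07 were the only enzymes below the median gene, at the 27.7 and 27.4 percentiles. In R98S clones the density was -0.50 and -0.51 for Impdh2 and Ctps and 1.94 for Adsl. The densities and their order also depend on the transcript chosen. Its exons hold 2845 bases for Atic, 1858 for Impdh2 and 3484 for Umps, against 7985, 3077 and 3484 over all annotated exons. Densities with the latter lengths were not computed.

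**Figure D4:**
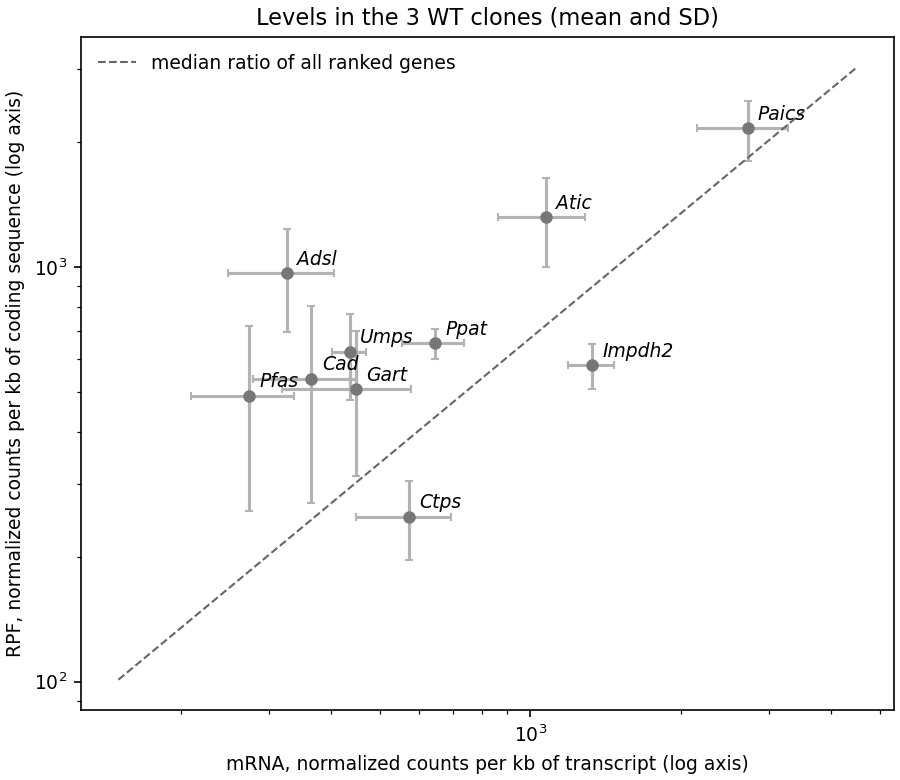
Mean level in the 3 WT clones with the SD as bars, mRNA per kb of transcript against RPF per kb of coding sequence, both on log axes; the dashed line is the median ratio of all genes ranked. Adsl lies farthest above the line (density 2.12), and Impdh2 and Ctps lie below it (both near -0.63).

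The remaining genes of the 2 pathways were taken as a list of 10: Impdh1, Gmps, Adss, Adssl1, Dhodh, Ctps2, Prps1, Prps2, Prpsap1 and Prpsap2. None of them passed in mRNA, RPF or TE (0 of 10 in each, limma), with an unadjusted p under 0.05 for 1, 2 and 1 of them. The largest differences were those of Adssl1, an adenylosuccinate synthase. Its mRNA was 761, 612 and 754 in R98S and 1133, 930.4 and 933 in WT, and its footprints were 392, 322 and 331 and 572, 464 and 477. The genotypes did not overlap in either, with log2 fold changes of -0.50 ± 0.18 (adjusted p = 0.188) and -0.53 ± 0.18 (adjusted p = 0.134). Adssl1 passed under 1 of 15 alternatives in mRNA and 2 of 15 in RPF (lowest adjusted p = 0.089 and 0.0884). Prps1, which makes phosphoribosyl pyrophosphate and is named after its values were seen, had nearly the same mRNA change, -0.50 ± 0.24 (adjusted p = 0.312), and passed under 2 of 15 (lowest adjusted p = 0.0626). For TE it was Impdh1, the other IMP dehydrogenase, with 0.46 ± 0.20 (adjusted p = 0.629).

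Serine, glycine and one-carbon metabolism supplies atoms of the purine ring. Among 10 genes of this metabolism, 1 of 9 tested rose in mRNA and 1 of 8 in RPF, and 0 were called lower. Over all genes, 3.03% and 3.13% were called higher and 3.91% and 4.62% lower. The gene that rose was Psph, the phosphatase of the last step of serine synthesis. Psph mRNA was 527, 512 and 407 in R98S clones and 64.4, 67.6 and 46.2 in WT clones, and its footprints were 382, 426 and 249 and 12.4, 26.0 and 11.9. As few as 24 mRNA reads and 9 footprint reads stood behind a WT value of Psph, so the sizes of its changes rest on few WT reads. The log2 fold change was 3.01 ± 0.26 in mRNA (adjusted p = 0.000297) and 4.36 ± 0.34 in RPF (adjusted p = 0.00017), in 3 of 3 R98S clones. In the same clones the enzymes that use glycine and one-carbon units, Gart and Atic, had RPF changes of -0.01 and 0.26, neither past the threshold. The ratio of RPF to mRNA of Psph was 0.724, 0.832 and 0.610 in R98S and 0.193, 0.385 and 0.257 in WT, without overlap, a TE change of 1.36 ± 0.25 (limma, unadjusted p = 0.000357 and adjusted p = 0.404). It passed under 1 of 13 alternatives, clone weights (adjusted p = 0.0137). Phgdh, the dehydrogenase of the first step of serine synthesis, is named here after its values were seen. Its mRNA was 5025, 3469 and 2979 in R98S and 7191, 4277 and 7112 in WT, and its footprints were 2623, 2451 and 1604 and 4258, 2702 and 4457, where the genotypes did not overlap. The Phgdh change was -0.69 ± 0.26 in mRNA (adjusted p = 0.191) and -0.77 ± 0.25 in RPF (adjusted p = 0.117), and each passed under 3 of 15 alternatives (lowest adjusted p = 0.0778 and 0.0329).

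Among the 14 salvage genes, which recover bases and nucleosides in place of new synthesis, 2 of 14 rose in mRNA and 1 of 14 in RPF, against 3.03% and 3.13% of all genes called higher, and 0 were called lower. In TE 0 of 14 were called, with 1 at an unadjusted p under 0.05, Dguok at -0.55 (adjusted p = 0.629). Dguok and Uck2, the latter named after its values were seen, each passed in TE under 1 of 13 alternatives, clone weights (adjusted p = 0.0583 and 0.0908). Ada, which deaminates adenosine, had 282, 432 and 328 mRNA counts in R98S and 110.1, 131 and 129 in WT. Its log2 fold change was 1.47 ± 0.24 in mRNA (adjusted p = 0.0111, and at most 0.0708 without any 1 clone). In RPF the Ada change was 1.05 ± 0.28 (adjusted p = 0.0663), and with 1 clone left out it passed only without R98S clone 35, with adjusted p-values up to 0.257 otherwise. Adk, which phosphorylates adenosine to AMP, had 1885, 1596 and 1653 mRNA counts in R98S and 798, 1270.2 and 1007 in WT. The Adk mRNA change of 0.76 ± 0.20 (adjusted p = 0.0761) did not pass without R98S clone 11, 13 or 35 or WT clone 36 (adjusted p up to 0.284). Nor did it pass with chromosome medians removed (0.58, adjusted p = 0.17).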

How the data were processed

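The mRNA and footprinting libraries of 6 Ba/F3 clones were analysed. The authors depleted ribosomal and transfer RNA reads from footprints with Bowtie2, aligned to mm10 with TopHat2 (mapping quality of at least 10), counted footprints on coding sequences trimmed by 60 bases and merged 3 technical replicates. The deposited signal values are gene counts divided by DESeq2 size factors, in 1 table per assay. Every value was a whole multiple of 1 read (tolerance 0.001), so whole reads were recovered for count tests. Groups and clone numbers came from the sample labels, and p-values measure the spread between these clones and their single libraries only.

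R98S and WT clones were compared in limma 3.58.1 under R 4.3.3, using log2(value + 1) and a mean-dependent prior variance, for genes with a mean of at least 10 normalized counts (11344 for mRNA, 9580 for RPF). TE was the log2 ratio of RPF to mRNA per clone, for 9043 genes with at least 10 in all 12 libraries. Fold changes are on the log2(value + 1) scale, and p-values were adjusted by Benjamini-Hochberg over all genes tested, with the study's threshold of 0.1. Libraries were paired by the clone number in the labels. Across genes, deviations of the 2 libraries of a clone correlated at 0.218 in WT clone 28 and 0.311 in WT clone 36. In the remaining clones the correlation was 0.609 to 0.681, so the pairing behind TE was weakest in WT clones 28 and 36. The study's Babel test of TE was not run. Alternatives were pseudocounts of 0.5 and 4, other filters, TMM scaling, edgeR 4.0.16, DESeq2 1.42.0, library weights, removal of chromosome medians and leaving out each clone. The tests were also run on simulated reads, drawn without clone effects and with changes larger than those of the enzymes. That run does not show how the tests behave with clone differences such as those seen here. Lengths and coordinates are from GENCODE M21, with the principal transcript of each gene, and levels per kb use its exon length (mRNA) or its coding length less 60 bases (RPF). Promoter windows are from RefSeq (GRCm38.p6).

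The 10 members and the other lists were chosen with earlier results of these data known. All members are described, with every gene of the other lists that passed in a measure and, where none did, the gene with the largest change.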

Additional observations from a re-analysis of the deposited data

How the results depend on the processing

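No enzyme passed the threshold under any alternative in mRNA, RPF or TE (lowest adjusted p = 0.109, Atic mRNA with library weights), and 388 of 430 alternative values kept the direction of the change. With 1 clone left out at a time, these changes passed through 0, as log2 ranges: in mRNA Ppat -0.15 to 0.032, Gart -0.21 to 0.22, Pfas -0.084 to 0.28, Paics -0.19 to 0.082 and Ctps -0.033 to 0.28; in RPF Ppat -0.10 to 0.025, Gart -0.29 to 0.27, Pfas -0.20 to 0.46, Adsl -0.24 to 0.17, Cad -0.18 to 0.52 and Umps -0.19 to 0.13; in TE Ppat -0.11 to 0.18, Gart -0.22 to 0.13, Pfas -0.14 to 0.18, Paics -0.24 to 0.063, Adsl -0.38 to 0.13 and Cad -0.39 to 0.26. Other settings reversed a small change. Library weights gave Gart mRNA -0.060, Ppat RPF 0.017, Gart RPF 0.056 and Adsl RPF -0.054. Removing chromosome medians gave Ctps mRNA -0.024, Gart RPF 0.079, Pfas RPF -0.021 and Umps RPF 0.044. Adsl RPF was -0.024 in edgeR and -0.028 in DESeq2. Clone weights turned TE to 0.056 for Gart, 0.17 for Pfas, 0.066 for Paics, 0.11 for Adsl and 0.14 for Cad, as leaving out WT clone 28 did.

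Over all genes, 787 were called in mRNA, 1283 with DESeq2, 2959 with library weights and 315 (without R98S clone 13) to 1113 (without WT clone 28) with 1 clone left out. In RPF 743 were called, 1799 with library weights and 229 (without R98S clone 13) to 1148 (without R98S clone 35) with 1 clone left out. In TE 2 were called, 796 with clone weights and 0 to 3 with 1 clone left out. Without the pairing of libraries by clone (no replicate block), 3 genes were called in TE by limma and 6 by DESeq2, and 0 of the 10 enzymes by either. The cause of these differences was not tested. The median 95% half-width for the enzymes was 0.458 in mRNA, 0.474 in RPF and 0.465 in TE on the log2 scale. These intervals are not adjusted for the number of genes, so a change had to be larger to pass the adjusted threshold.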

Other observations

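The 8 genes of deoxynucleotide and thymidylate synthesis, which take up the products of both pathways for DNA, held no called gene in mRNA, RPF or TE (limma, with 0, 1 and 0 at an unadjusted p under 0.05). The largest mRNA difference was that of the dUTPase Dut, -0.47 ± 0.22 on the log2 scale (adjusted p = 0.315); normalized counts were 2161, 2400.4 and 2783 in R98S and 4579, 3243 and 2569 in WT. In RPF it was Rrm2, the small subunit of ribonucleotide reductase, with 2519.7, 2642 and 2252 in R98S and 4749, 3719 and 2959.7 in WT and no overlap (-0.60 ± 0.20, adjusted p = 0.128, and 0.0549 in DESeq2, the only alternative of 15 that passed). In TE it was the large subunit Rrm1 (-0.50 ± 0.28, adjusted p = 0.666). The ratio of RPF to mRNA of Rrm1 was 1.01 in WT clone 28 and 0.410 to 0.569 in the other 5 clones, so the same clone that stood high for Cad and Adsl also stood high here.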
